A study of Mus musculus with 54 samples.

Results

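The genes analysed here encode the signalling route from the cytokine LIF to the transcription factor STAT3 and its targets, and comprised 8 genes of the mouse, Lifr, Il6st, Jak1, Stat3, Socs3, Pim1, Pim3 and Gbx2. They were chosen by name. For each gene, the accessible regions (peaks) of 1 merged list were taken whose centre lay within 50 kb of any annotated transcription start site (TSS) of that gene, on the genome build GRCm38 with the GENCODE M21 annotation. This rule found 103 of the 113737 peaks in the list. A peak was called a TSS peak of a gene when its centre lay within 1 kb of a TSS of that gene, and distal when its centre lay more than 1 kb from every annotated TSS of any gene. Of the 103 peaks, 14 were TSS peaks of the 8 genes, 74 were distal and 15 lay at TSSs of other genes.

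LIF binds a receptor complex of LIFR and gp130, the product of Il6st. The bound complex activates JAK kinases, of which JAK1 is a main one, and these phosphorylate STAT3. Phosphorylated STAT3 forms dimers that enter the nucleus and bind DNA at palindromic sites. SOCS3 is induced by STAT3 and inhibits the receptor complex, which closes a negative feedback loop. Pim1 and Pim3 encode serine/threonine kinases and Gbx2 a homeobox factor, and all 3 are known as STAT3 targets in mouse embryonic stem (ES) cells, where LIF and STAT3 help to keep the cells pluripotent.

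Accessibility was measured by ATAC-seq, in which the transposase Tn5 cuts and tags open DNA, in ZHBTc4 mouse ES cells. In this line untagged Pou5f1 (OCT4) is driven by a Tet-Off promoter, which doxycycline (dox) switches off. All 54 samples carried mCherry-OCT4-AID, an OCT4 fusion expressed at a low level from a PGK promoter whose degradation is triggered by auxin (indole-3-acetic acid, IAA), together with the Tir1 ubiquitin ligase and the fluorescent cell cycle reporter YPet-MD. A set of 22 samples received dox for 26 hr with or without 500 nM IAA for 2 hr, with 3 replicates per treatment in early G1, late G1 and S phase and 2 in late S/G2 phase. A washout set of 16 samples received dox for 31 hr, 2.5 hr of IAA or none, and 4.5 hr of washout, with 2 replicates in each of the same 4 phases. A time course of 16 samples received dox for 34 hr and no IAA or IAA for 30 min or 1, 2, 3, 4, 6 or 10 hr, unsorted, with 2 replicates each. All groups shared a medium with LIF, serum and inhibitors of GSK3 and MEK, so no group lacked the signal that these genes transmit, and all groups had dox, so OCT4 came from the transgene of 1 engineered line. The list gave 1 set of regions for the whole series, with no signal per sample. No value below therefore belongs to a treatment, phase or time point, no treated group could be set against its untreated controls, and no replicate error or test could be given. The list also holds no expression values, so the labelled cell type was not checked against marker transcripts.

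The sequences shown first are matches to the STAT consensus in the peaks of these genes, since STAT3 is the factor that the pathway activates. The consensus TTCCNGGAA, which is its own reverse complement, was found in 6 of the 88 TSS and distal peaks of the 8 genes when whole peaks were searched. These were 5 of the 74 distal peaks, against 2.1% of all distal peaks, and 1 of the 14 TSS peaks, against 3.32% of the TSS peaks of all protein_coding genes. Each is shown with 10 flanking bases on the plus strand of GRCm38, with the match in capitals. The first 4 lie within the central 300 bp of a distal peak, the fifth in the TSS peak of Socs3 and the last toward the edge of a Gbx2 peak, which was added after its position was seen.
Lifr, distal, chr15:7115507-7115535: tggggagagaTTCCAGGAAatgaaacaac
Socs3, distal, chr11:117923297-117923325: gccagtgggcTTCCAGGAAgggaaggcga
Socs3, distal, chr11:117962613-117962641: gaaattccctTTCCAGGAAgagcggaagc
Pim3, distal, chr15:88837707-88837735: ggccacgaccTTCCTGGAAagcacttggc
Socs3, TSS peak, chr11:117969229-117969257: cgccccccgaTTCCTGGAActgcccggcc
Gbx2, distal, chr1:89969029-89969057: tcttagatctTTCCTGGAAaggactggaa

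All 8 genes had a peak at an own TSS, against 70.8% of the 21938 protein_coding genes of the annotation (15535 genes). The distal peaks numbered 18 for Lifr, 14 for Socs3, 11 for Pim3, 9 for Gbx2, 8 for Jak1, 7 for Il6st, 4 for Stat3 and 3 for Pim1. The median over the 8 genes was 8.5, against 5 over the 15535 genes with a TSS peak, whose quartiles were 3 and 8. More distal peaks than that median of 5 were found at 6 of the 8 genes and at 47.5% of all such genes. Lifr and Socs3 lay high among all genes, since 2.50% of the 15535 genes had at least as many distal peaks as Lifr and 6.24% at least as many as Socs3. The share was 13.9% for Pim3, 23.1% for Gbx2, 29.8% for Jak1 and 38% for Il6st. Stat3 and Pim1 lay below the median, with shares of 68.8% and 79.4%. The 74 distal peaks were distinct, and none was counted for more than 1 of the 8 genes.

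**Figure D1:**
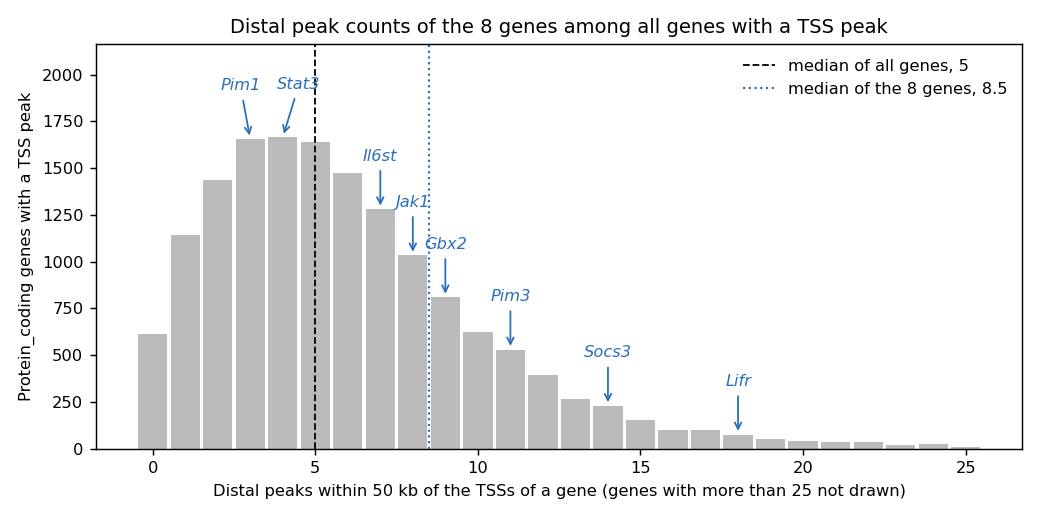
Number of distal peaks within 50 kb of the TSSs of a gene (horizontal axis) against the number of protein_coding genes with a TSS peak that had this number (grey bars, vertical axis). Arrows mark the 8 pathway genes, from Pim1 with 3 to Lifr with 18 distal peaks, and the vertical lines mark the medians of 5 for all genes and 8.5 for the 8 genes.

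A gene with TSSs spread over a long stretch has a longer window. The window spanned 100.862 kb for Socs3 but 210.164 kb for Jak1, whose annotated TSSs lay up to 110163 bp apart. Per 100 kb of window, Socs3 had the highest value of the 8 genes with 13.9 distal peaks, followed by Lifr with 11, Pim3 with 10.7, Gbx2 with 8.82 and Il6st with 6.31. Jak1 had 3.81, Pim1 2.92 and Stat3 2.68, all below the median of 4.42 over all genes with a TSS peak, so Jak1 moved from above that median to below it. At least as high a density as that of Socs3 was found at 1.14% of these genes, and as that of Lifr, whose window spanned 163.74 kb, at 4.93%.

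**Figure D2:**
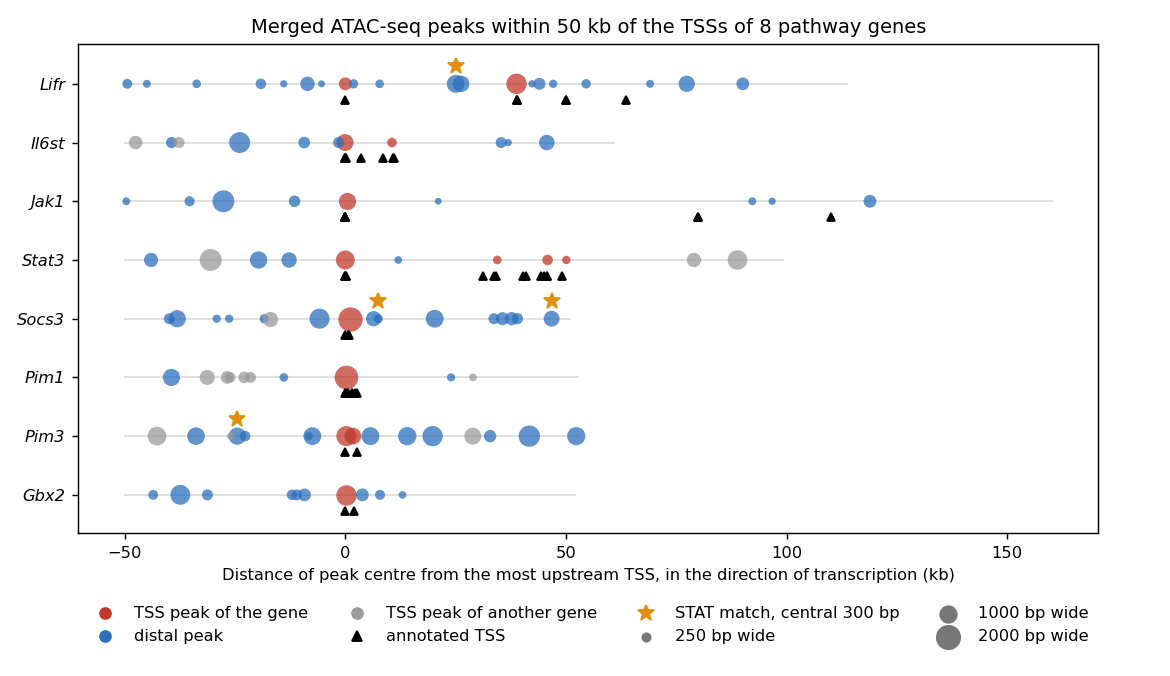
Peaks within 50 kb of the TSSs of the 8 genes by distance of their centre from the most upstream TSS (horizontal axis, kb, positive in the direction of transcription). Circle area follows peak width, red circles are TSS peaks of the gene, blue circles distal peaks and grey circles TSS peaks of other genes, triangles are annotated TSSs, and stars mark the 4 distal peaks with a STAT match, at Lifr, Socs3 (2 peaks) and Pim3.

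Lifr (ENSMUSG00000054263.12), which encodes the LIF receptor chain LIFR, spans chr15:7090614-7197489 on the plus strand, and no TSS of another protein_coding gene lay in its window. It had TSS peaks at 2 promoters. The peak at its most upstream TSS, chr15:7090330-7090942, was 613 bp wide, and the peak centred 38837 bp downstream of that TSS, chr15:7128685-7130216, was 1532 bp wide. Only the wider one lay at a TSS of a transcript in the basic set of the annotation, which is a subset of its transcripts. The 18 distal peaks reached from 1880 to 49370 bp from the nearest Lifr TSS, and 9 of them lay within 10 kb. Of the 18, 11 were in introns of Lifr and 7 in the intergenic sequence upstream, and Lifr was the nearest protein_coding TSS for all 18. Their widths ran from 179 to 1176 bp with a median of 324.5 bp, so most were narrow. The nearest distal peak, chr15:7092334-7092654, was 321 bp wide and lay in an intron 1880 bp downstream of the first promoter.

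The widest distal peak of Lifr, chr15:7115069-7116244 with 1176 bp, lay in an intron 13902 bp upstream of the 1532 bp promoter peak's TSS, beside a second intronic peak of 1010 bp whose centre was 1219 bp away. It held the only STAT match among the distal peaks of Lifr. Its central 300 bp also held 2 further matches to the looser GAS-type consensus TTCNNNGAA, which every STAT match also meets. The central window is shown with the 3 GAS-type matches in capitals, of which the first is the STAT match.
Lifr intron, chr15:7115507-7115806, plus strand: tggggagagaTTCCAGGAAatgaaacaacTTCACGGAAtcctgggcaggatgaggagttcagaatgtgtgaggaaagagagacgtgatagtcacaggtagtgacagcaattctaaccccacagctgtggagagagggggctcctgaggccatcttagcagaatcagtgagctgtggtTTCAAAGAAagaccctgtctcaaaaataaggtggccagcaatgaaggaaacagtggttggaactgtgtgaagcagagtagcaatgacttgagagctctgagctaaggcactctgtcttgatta
Outside the central window, the same peak held 2 OCT octamers, ATTTGCAT on either strand, the sequence bound by the POU domain of OCT4. They are shown in capitals and were noticed after the values were seen. The first lies within a match, with 2 mismatches, to the composite OCT4::SOX2 motif, which is described further on.
Lifr intron, chr15:7115847-7115922, plus strand: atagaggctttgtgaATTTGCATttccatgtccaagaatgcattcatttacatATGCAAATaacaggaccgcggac

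Il6st (ENSMUSG00000021756.12), which encodes the shared signal transducer gp130, spans chr13:112464070-112510086 on the plus strand. Its main TSS peak, chr13:112463526-112464583, was 1058 bp wide and centred 15 bp upstream of the TSS. A second one, chr13:112474502-112474840, was 339 bp wide and lay 337 bp upstream of an internal TSS without spanning it. The 7 distal peaks lay between 1474 and 39340 bp from an Il6st TSS, 4 upstream and 3 downstream, and 3 of them fell inside the gene. Within 20 kb Il6st had 2 distal peaks, no more than the median of all genes in that window. The widest, chr13:112439366-112440971, measured 1606 bp, lay 23901 bp upstream and was intergenic, and the other 6 ran from 192 to 889 bp. The nearest, chr13:112462373-112462818, was 446 bp wide and intergenic at 1474 bp upstream, and it was the only distal peak of the 8 genes with an OCT octamer in its central 300 bp. That window is shown for this reason, with the octamer in capitals.
Il6st upstream, chr13:112462446-112462745, plus strand: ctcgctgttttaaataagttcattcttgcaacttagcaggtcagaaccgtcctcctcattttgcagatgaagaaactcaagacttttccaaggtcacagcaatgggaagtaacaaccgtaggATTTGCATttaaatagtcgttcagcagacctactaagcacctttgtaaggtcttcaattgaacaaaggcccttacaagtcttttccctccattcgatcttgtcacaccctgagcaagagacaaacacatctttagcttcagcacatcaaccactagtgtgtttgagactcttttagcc
No STAT match was found in any TSS or distal peak of Il6st.

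Jak1 (ENSMUSG00000028530.14), the receptor-bound tyrosine kinase, spans chr4:101152367-101265282 on the minus strand. It had 1 TSS peak, chr4:101264397-101265489, of 1093 bp, centred 280 bp downstream of the nearest TSS. No peak was centred within 1 kb of its internal TSSs. The 8 distal peaks lay between 8743 and 49598 bp from a Jak1 TSS, and 7 of them were in introns, of which 3 were introns of Jak1 itself. The widest, chr4:101291987-101293753, lay 27588 bp upstream in an intron of the gene Gm12796 and was with 1767 bp the widest distal peak of all 8 genes. The nearest, chr4:101146072-101146680, was 609 bp wide and lay in an intron of Raver2, the gene downstream of Jak1. The other 6 were narrow, from 169 to 489 bp, and the median over all 8 was 303 bp. With TSSs of the basic set alone, Jak1 had 5 distal peaks, no more than the median of all genes. The central windows held no STAT match, and the single GAS-type match lay outside its peak of 169 bp.

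Stat3 (ENSMUSG00000004040.16), the transcription factor of the pathway, spans chr11:100885098-100939540 on the minus strand. Its promoter peak, chr11:100938841-100940165, was 1325 bp wide and centred 24 bp upstream of the nearest TSS. A further 3 peaks inside the gene counted as TSS peaks, chr11:100889304-100889563 of 260 bp, chr11:100893475-100893887 of 413 bp and chr11:100904933-100905211 of 279 bp. None of these 3 lay within 1 kb of a TSS from the basic set, and with that set alone Stat3 had 1 TSS peak and 7 distal peaks, above the median of 5 over all genes, whereas it lay below it with all transcripts. The 4 distal peaks lay between 11881 and 43974 bp away, 3 upstream and 1 in an intron of Stat3. The nearest, chr11:100927391-100927606, was the intronic one and measured 216 bp. The widest, chr11:100958612-100959716, measured 1105 bp and lay 19624 bp upstream in an exon of Cavin1. Of the 4, 2 had Cavin1 and not Stat3 as their nearest protein_coding TSS. The window also held the TSS peaks of Stat5b (1415 bp) and Stat5a (752 bp), related STAT genes downstream of Stat3, and that of Cavin1 (1778 bp). No STAT or GAS-type match was found in the central windows of the Stat3 peaks.

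Socs3 (ENSMUSG00000053113.3), the feedback inhibitor, spans chr11:117966079-117970047 on the minus strand and is only 3969 bp long. Its single TSS peak, chr11:117967883-117970061, measured 2179 bp and was the widest TSS peak of the 8 genes. Among all genes with a TSS peak, 3.19% had one at least as wide. The STAT match in it lay 271 bp from the peak centre, and thus outside the central window, with its middle base 57 bp upstream of the nearest TSS. The stretch upstream of that TSS is shown with the match in capitals. It lies within the Socs3 gene, with its middle in no exon, between the TSSs of different transcripts.
Socs3 promoter, chr11:117969187-117969347, plus strand: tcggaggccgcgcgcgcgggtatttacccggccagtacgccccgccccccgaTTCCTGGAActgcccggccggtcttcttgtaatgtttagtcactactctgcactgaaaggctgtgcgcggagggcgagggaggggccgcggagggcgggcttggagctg
The 14 distal peaks lay between 5586 and 45911 bp from a Socs3 TSS, 6 upstream and 8 downstream, and none was inside the gene. Of these, 9 were intergenic and 5 were in introns of Pgs1, the neighbouring gene upstream, which was also the nearest protein_coding TSS for those 5. Their widths ran from 247 to 1472 bp with a median of 542.5 bp, and 3 were 1 kb or wider. The widest, chr11:117975119-117976590, lay 5808 bp upstream. The nearest, chr11:117963169-117964031, measured 863 bp and lay 5586 bp downstream.

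STAT matches fell in the central windows of 2 distal peaks of Socs3, which gave it 2 of the 4 such peaks of the 8 genes. One peak, chr11:117922812-117923737, was 926 bp wide and lay 45911 bp downstream. The other, chr11:117962385-117962687, was 303 bp wide and lay 6650 bp downstream, next to the nearest distal peak. Its central window, which is nearly the whole peak, is shown with the match in capitals.
Socs3 downstream, chr11:117962386-117962685, plus strand: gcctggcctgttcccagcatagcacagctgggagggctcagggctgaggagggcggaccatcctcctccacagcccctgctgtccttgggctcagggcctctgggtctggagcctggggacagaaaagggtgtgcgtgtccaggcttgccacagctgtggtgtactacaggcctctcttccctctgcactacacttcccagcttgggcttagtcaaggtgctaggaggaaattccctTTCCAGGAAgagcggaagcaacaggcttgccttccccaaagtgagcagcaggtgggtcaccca

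Pim1 (ENSMUSG00000024014.8) spans chr17:29490753-29496112 on the plus strand. Its TSS peak, chr17:29489947-29492016, was 2070 bp wide, the second widest TSS peak of the 8 genes, and 4.53% of all genes with a TSS peak had one at least as wide. By contrast it had the fewest distal peaks, 3, at 13893, 21331 and 39363 bp. The nearest, chr17:29476722-29476997, measured 276 bp and the widest, chr17:29450847-29451932, 1086 bp. A further 6 peaks in the window lay within 1 kb of TSSs of other genes, 5 of them at AC163629.2 and Gm26885 upstream and 1 at Gm17657 downstream, so most peaks around Pim1 did not count as distal. No STAT match was found in the TSS or distal peaks of Pim1.

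Pim3 (ENSMUSG00000035828.11) spans chr15:88862186-88865726 on the plus strand, and its distal peaks were the widest of the 8 genes. The median width of its 11 distal peaks was 1166 bp, and 8 of the 11 were 1 kb or wider, at distances from 2998 to 49625 bp on both sides. Only 5 of the 15535 genes with a TSS peak, or 0.0322%, had 8 or more distal peaks of this width, and the other 4, named after their values were seen, were Rnf220, Sfi1, Zfp988 and Gm47283. Most of all genes, 10082, had none. The widest, chr15:88903072-88904744, measured 1673 bp and lay 38988 bp downstream in an intron of Ttll8, and the nearest, chr15:88867328-88868507, measured 1180 bp and lay 2998 bp downstream. The distal peak with a STAT match, chr15:88837194-88838296, measured 1103 bp and lay 24441 bp upstream, where Creld2 was the nearest protein_coding TSS. Pim3 was the nearest protein_coding TSS for 5 of the 11. Its TSS peaks, chr15:88861707-88863181 of 1475 bp and chr15:88863428-88864447 of 1020 bp, had centres 1494 bp apart, and only the first lay at a TSS of the basic set.

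Gbx2 (ENSMUSG00000034486.8) spans chr1:89927956-89931179 on the minus strand. Its TSS peak, chr1:89930182-89931720, was 1539 bp wide. The 9 distal peaks lay between 1912 and 43500 bp away, 6 upstream and 3 downstream, with a median width of 444 bp. The nearest, chr1:89926972-89927573, measured 602 bp and lay just downstream of the gene. The widest, chr1:89967809-89969259, measured 1451 bp, was the only one of 1 kb or wider, and lay 37355 bp upstream in an exon of Asb18. Its STAT match was 509 bp from the peak centre. The distal peaks of Gbx2 had the highest median GC content of the 8 genes, 60.03%. Of the 9, 6 held the KLF consensus GGGNGNGGC, bound by KLF factors, in the central 300 bp, against 12.1% of all distal peaks. In 1 of these 6 the match lay outside its peak. Of the 16 distal peaks with a KLF match around the 8 genes, Gbx2 alone gave 6.

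Widths are the only measure of size in the list. A merged region is as wide as the union of the overlapping peaks from which it was made, and per the study's methods these came from the experiments on dox-treated cells of this line. The 74 distal peaks had a median width of 453 bp, with quartiles of 276.25 and 966.5 bp, against 380 bp, 251 bp and 642 bp for the 89794 distal peaks of the whole list. When only distal peaks within 50 kb of genes with a TSS peak were taken, counted once per gene, the median of all was 429 bp. Of the 74, 18 were 1 kb or wider, against 7.28% of all distal peaks. Pim3 gave 8 of these 18 and Socs3 3, and without Pim3 10 remained. At the other end, 5 of the 74 were under 200 bp, against 5.38% of all distal peaks. The median of the widest TSS peak was 1503.5 bp over the 8 genes and 1219 bp over all genes with a TSS peak. The 14 TSS peaks together had a median of 1075.5 bp, close to 1068 bp for the 19525 TSS peaks of all protein_coding genes, because the additional peaks at Stat3, Il6st and Lifr were narrow.

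**Figure D3:**
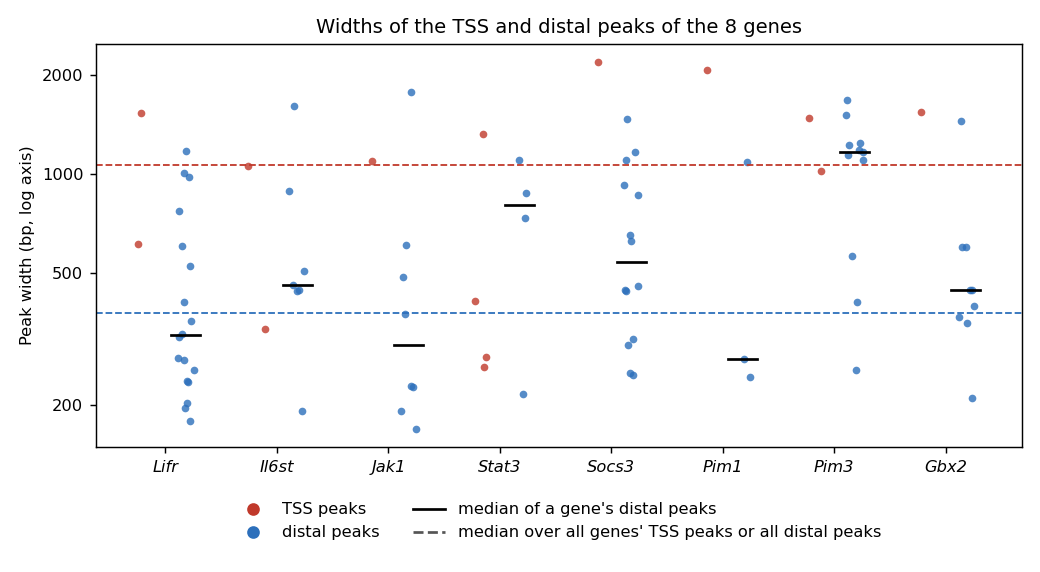
Width in bp (vertical log axis) of each TSS peak (red) and distal peak (blue) of the 8 genes. Black bars are the medians of each gene's distal peaks, from 276 bp at Pim1 to 1166 bp at Pim3, and dashed lines are the medians over the TSS peaks of all protein_coding genes (1068 bp) and over all distal peaks of the list (380 bp).

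By position, 37 of the 74 distal peaks were intergenic, 32 in introns and 5 in exons. These were 50% intergenic, 43.2% intronic and 6.76% exonic, and the shares of all distal peaks were 49.6%, 44.3% and 6.14%. Only 18 of the 74 fell inside the gene itself, 11 of them in Lifr. A member gene was the nearest protein_coding TSS for 58 of the 74. Upstream of the nearest own TSS lay 41 peaks, or 55.4%, against 49.1% over all genes with a TSS peak, and 21 lay within 10 kb, or 28.4% against 24.7%. The median distance was 18718.5 bp, against 21661 bp for all genes. Just inside the 50 kb limit lay peaks at 49370 bp (Lifr), 49598 bp (Jak1) and 49625 bp (Pim3), and just outside it lay peaks at 50565 bp (Gbx2) and 50894 bp (Il6st).

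The base composition of the distal peaks differed in level from that of the list. The list was not limited to distal peaks within 50 kb of genes with a TSS peak, as the 74 were. For composition, motifs and the share of peaks 1 kb or wider, no comparison within that limit was made. The median GC content was 51.9%, against 47.7% for all distal peaks, and the median ratio of observed to expected CpG was 0.290 against 0.210. Repeat-masked bases made up a median of 8.07% of a distal peak, against 13.0% in all, and none of the 74 was masked over 50% or more of its bases, against 15.6% of all distal peaks. For the 14 TSS peaks the median GC content was 64.5% against 58.3%, and the CpG ratio 0.719 against 0.636. GC content also varied among the genes, from a median of 47.1% in the distal peaks of Il6st to 60.03% in those of Gbx2.

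Consensus motifs were searched on both strands in the central 300 bp of each peak, a window that reaches beyond peaks narrower than this. Of the 74 distal peaks, 4 held a STAT match, against 1.29% of all distal peaks. They lay at Lifr, Socs3 and Pim3, and with Socs3 left out 2 remained. GAS-type matches, which include the STAT matches, were found in 10 of the 74, against 9.97%, so for the looser consensus the share was nearer to that of the list. They comprised 4 peaks of Lifr, 3 of Socs3 and 1 each of Jak1, Pim3 and Gbx2. In 4 of these 10, all narrower than the window (2 of Lifr and those of Jak1 and Gbx2), the match lay outside the peak itself. Within whole peaks, 12 of the 74 held a GAS-type match, against 15.7% of all distal peaks. KLF matches occurred in 16 of the 74, against 12.1%, and in 3 of the 16 the match lay outside the peak. This consensus consists mostly of G and C, and the distal peaks had a higher median GC content than the list, as given above. The part of GC content in this count was not tested.

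For OCT, OCT4::SOX2, SOX and ESRRB, the shares in the central windows of the 74 distal peaks were near or below those of the list. Their counts were too small to rank. KLF differed from these 4, with matches in 16 of the 74 against 12.1%, as given above. The octamer ATTTGCAT was found in 1 of the 74 distal peaks, against 2.05%. The composite OCT4::SOX2 motif, made of CATTGT, 1 free base and ATGCAAAT with up to 2 mismatches, was found in none, against 0.494%. The SOX consensus CCNTTGT was found in 15, against 20.2%, and the ESRRB consensus TCAAGGTCA in 1, against 2.13%. The octamer and the SOX consensus can overlap a composite match. In whole peaks the shares of OCT, OCT4::SOX2 and SOX lay above those of the list instead, with OCT in 3 of the 74 against 3.05% of all distal peaks, OCT4::SOX2 in 2 against 0.766% and SOX in 27 against 27.9%, where the median width was 453 bp for the 74 and 380 bp for all. In the central 300 bp of the 14 TSS peaks, there was no match for STAT (0.983% of the TSS peaks of all protein_coding genes), GAS-type (5.59%), OCT (0.86%), OCT4::SOX2 (0.128%) or ESRRB (0.615%). A SOX match was present in 1 of the 14, against 11.3%, and a KLF match in 4, against 32.2%. A match describes the letters in the window and not binding, and the absence of a match says only that these letters are not in it.

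**Figure D4:**
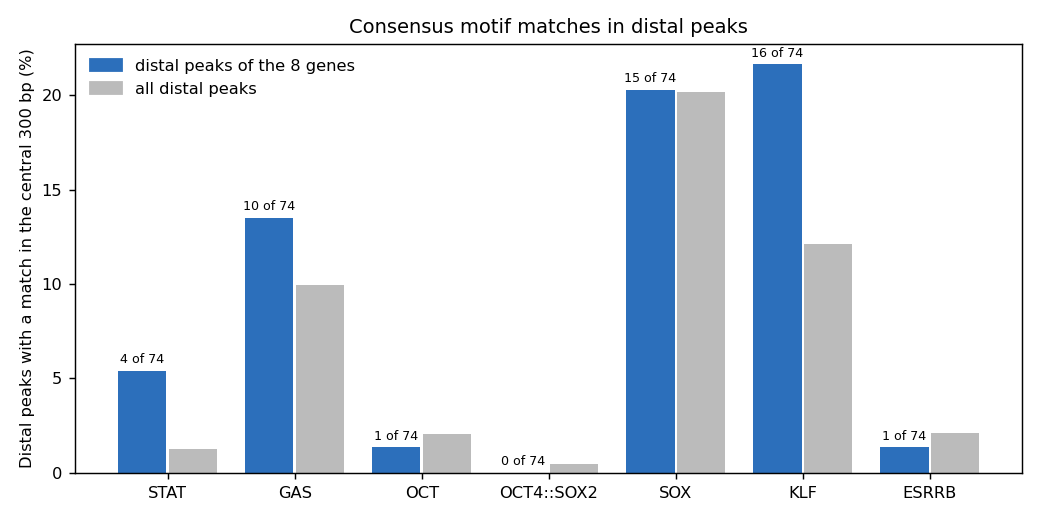
Share of distal peaks with a consensus match in the central 300 bp (vertical axis, %) for 7 motifs. Blue bars are the 74 distal peaks of the 8 genes, with their counts, and grey bars all 89794 distal peaks, and the blue bars of STAT (4 of 74), GAS (10 of 74) and KLF (16 of 74) stand above the grey ones, that of SOX (15 of 74) lies level, and those of OCT (1 of 74), OCT4::SOX2 (0 of 74) and ESRRB (1 of 74) lie below.

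The remaining genes of the pathway were taken as a list of 35 ligands, receptors, kinases, STATs, inhibitors and targets, of which 33 had a TSS peak. Those without one were Il6 and Cntf, the genes of the cytokines interleukin 6 and ciliary neurotrophic factor. The 33 had a median of 7 distal peaks, against 5 over all genes with a TSS peak, and 19 of the 33 lay above that median, to be read against the 47.5% given above. Lif itself had 14 distal peaks, the most of the 7 ligands. Among the 4 other receptor genes, Cntfr had the most with 13, and all 4 had at least 8. Jak3 and Tyk2 had 9 each and Jak2 had 1. Among the other STAT genes the count ran from 1 at Stat5a and at Stat5b to 12 at Stat6. Among the 12 inhibitors it ran from 0 at Pias1 to 13 at Socs6, and among the 3 other targets from 2 at Pim2 to 17 at Bcl3, which encodes a nuclear regulator of NF-kappa-B. Only Bcl3 came near the 18 of Lifr. Neighbouring genes share distal peaks, so their counts are not independent. Lif and Osm shared 9 and Cntfr and Il11ra1 8, and the only distal peak of Stat5a was also counted for Stat3.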

How the data were processed

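The peak list of the OCT4-AID ATAC-seq experiments was analysed. Per the labels and the study's methods, the authors aligned reads to mm10/GRCm38 with STAR 2.6.1c, removed duplicates with Picard, kept the 19 autosomes and the sex chromosomes, ran MACS2 2.1.1.20160309 for peak calling and merged the peaks with bedtools. The deposited list gives chromosome, start and end in bp, with no score or count, so the depth is unknown. Whether peaks were called per library was not given in the sources used here. The list held 11 peaks over 5 kb, whereas the methods describe their removal.

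Positions are 1-based. All 113737 peaks fitted the chromosomes of GRCm38.p6, whose sequence (RefSeq, soft-masked for repeats) and GENCODE M21 TSSs were used. Distances run from the peak centre to the nearest own TSS. Exon, intron and intergenic classes were read at the centre. Consensus motifs were matched exactly except OCT4::SOX2 (up to 2 mismatches). Counting and matching were tested on simulated data. No test across groups was possible, so counts and medians stand beside those of all genes or peaks as a description. Genes and motifs were chosen with earlier results of these data known. All 8 genes were described, single peaks were named when they were TSS peaks, the nearest or widest distal peak or held a STAT match in the central 300 bp, and of the other pathway genes those without a TSS peak, with the most distal peaks of their role or with a TSS in the window of one of the 8 genes. Those with the fewest distal peaks (Jak2, Pias1, Pim2) and those that share peaks (Osm, Il11ra1) were added after their values were seen. Alternatives were windows of 20 and 100 kb, TSS limits of 500 and 2500 bp, basic transcripts, width filters, edge distances, the nearest coding TSS, whole-peak motifs and leaving out each gene. Python 3.11.15, numpy 2.4.6, pandas 2.3.3 and matplotlib 3.10.9 were used.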

Additional observations from a re-analysis of the deposited data

How the results depend on the processing

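Values were called moved when they changed by more than 1.5 times. Of the values of the main comparisons under the alternatives 246 did not move and 22 did, and all of those are given here. The total of 74 distal peaks, and their median of 8.5 per gene, became 40 and 4.5 in a 20 kb window, where 9 were 1 kb or wider, and 122 and 14 in a 100 kb window. Values of single genes did not move in 107 cases and did in 21. The number of the 8 genes above the median of all genes was 6, and under the alternatives that kept all 8 genes it was 5 per 100 kb of window and 6 in each other case. It did not always comprise the same genes, since with basic transcripts Stat3 (7) lay above the median of 5 and Jak1 (5) did not, and in the 20 kb window Stat3 (3) lay above the median of 2 and Il6st (2) did not. The median of all genes with a TSS peak became 2 and 10 in these windows. With basic transcripts only, the 14 TSS peaks became 9, and all 8 genes kept a TSS peak under each alternative. In whole peaks, distal matches numbered 3 for OCT, 2 for OCT4::SOX2 and 27 for SOX, and TSS peak matches 1 for STAT, 3 for GAS-type, 1 for OCT, 3 for SOX and 8 for KLF. For OCT, OCT4::SOX2 and SOX the shares in distal peaks thereby came to 4.05%, 2.70% and 36.5%, above the 3.05%, 0.766% and 27.9% of all distal peaks, whereas in the central window OCT and OCT4::SOX2 lay below the list and SOX level with it, and the cause was not tested. With up to 3 mismatches, OCT4::SOX2 was matched in 3 distal peaks. Leaving out each gene in turn gave 10 to 17 distal peaks of 1 kb or wider, 2 to 4 with a STAT match, 6 to 10 GAS-type, 10 to 16 KLF, 0 to 1 OCT and 0 to 1 ESRRB, and 0 to 1 TSS peaks with a SOX match. No paired analysis was possible because the list holds no value per sample. The unknown depth limits every count, since weakly accessible regions may be missing from the list.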
